A study of Mus musculus with 26 samples.

Results

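Trp53, which encodes the transcription factor p53, and 9 genes that p53 activates directly were followed in murine EML4-ALK lung cancer lines with and without the ALK inhibitor alectinib. The genes were Trp53, Mdm2, Cdkn1a, Ccng1, Trp53inp1, Zmat3, Phlda3, Eda2r, Gdf15 and Aen, each found by its symbol, with case ignored, on 1 row of the deposited counts table. They are 10 of 55391 gene rows. All 10 had enough counts to be tested in every comparison given here, among 12886 genes in the DMSO cultures, 13486 in the alectinib cultures and 14264 for the effect of alectinib.

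p53 is held at a low level by Mdm2, an E3 ubiquitin ligase that marks it for degradation. DNA damage, oncogene signaling and ribosome stress release p53 from this control, mostly through the protein rather than the mRNA, and p53 then binds response elements near its targets and raises their transcription. Among these targets, Mdm2 closes a negative feedback loop and Ccng1 takes part in it. Cdkn1a encodes p21, which inhibits cyclin-dependent kinases, while Trp53inp1, Phlda3, Eda2r and Aen serve cell death, stress or survival pathways. Several targets also answer to other factors, and Gdf15 in particular is induced by the ATF4 stress response.

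EA1, EA2 and EA3 are lines of C57BL/6 mouse origin that carry the EML4-ALK fusion. Each received 100 nM alectinib or the solvent DMSO at 0.1%, and on days 1, 2, 3 and 5 each culture gave 1 library, which gave 4 libraries in each of 6 groups. The labels name only the fusion as genotype, and counts per gene do not separate exons. Each line is a single line, so that the level of Trp53 and any other property of that line cannot be told apart. No library was repeated within a day, so that the 4 days served as replicates and the p-values measure the spread between days. In these bulk cultures, fewer cells that express a gene and less RNA per cell cannot be told apart either.

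Totals of the 24 libraries of days 1 to 5 lay between 5780062 and 11732401 counts. Values are CPM, counts divided by library size on a common scale, adjusted with edgeR's TMM factors. Of 6 epithelial markers, 6 exceeded 10 counts in at least 1 DMSO library of EA3, 5 of EA1 and 4 of EA2, and Cldn4 was at 0 in the DMSO libraries of EA2. Of 7 alveolar type 2 markers, only Abca3 exceeded 10 counts in any group, and Sftpa1 was at 0 in every group. The summed level of 7 fibroblast markers was 2.25 to 7.65 CPM in EA1, 57.1 to 71.3 CPM in EA2 and 10.3 to 20.5 CPM in EA3 with DMSO and 58.1 to 324 CPM over all lines with alectinib, and that of 6 blood cell markers in DMSO was 1.72 to 9.42 CPM in EA1, 11.0 to 87.3 CPM in EA2 and 6.02 to 94.7 CPM in EA3. The part of these marker changes in the values below was not tested. Of the 26 libraries, 2 are labelled EA3 day 7. Trp53 stood at 45.2 CPM in the DMSO library and 32.2 CPM in the alectinib library so labelled, above all 8 other EA3 libraries, which held at most 7.57 CPM. They were left out of the values below, and calls of targets that are lost when they are added are named.

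**Figure D1:**
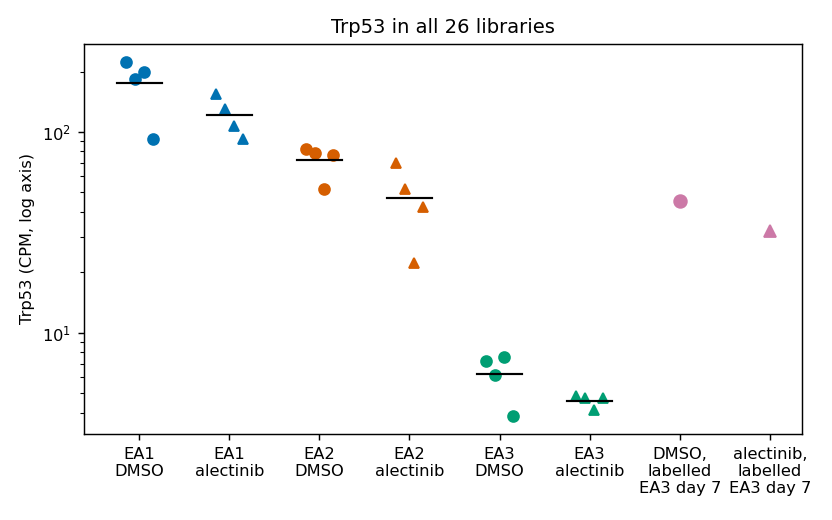
Trp53 in CPM (log axis) in all 26 libraries, by line and treatment; each point is 1 library (circles DMSO, triangles alectinib) and each bar the mean of 4 days. The EA1 libraries lie highest and the EA3 libraries of days 1 to 5 lowest, and the 2 libraries labelled EA3 day 7, at 45.2 and 32.2 CPM, lie far above the other EA3 libraries.

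The windows from 250 bases before to 50 bases after annotated start sites (RefSeq, build GRCm38.p6) were searched for the p53 consensus site, since p53 binds response elements near its targets. The site is a pair of adjoining 10-letter blocks, 20 letters in all, that reads alike on both strands. A match kept the 4 fixed letters (CNNG in each block) and had at most 2 mismatches. Windows were at hand for 8 of the 10 genes, 11 windows in all, and not for Trp53inp1 and Zmat3. A match was found in 2 of the 11, against 107 (0.326%) of all 32851 windows. They are shown 5′ to 3′ on the strand of the gene, with the match in capitals. The upper one is an upstream start of Cdkn1a at chr17:29090729-29091028 (+), the lower one the start of Ccng1 at chr11:40755237-40755536 (-).
Cdkn1a: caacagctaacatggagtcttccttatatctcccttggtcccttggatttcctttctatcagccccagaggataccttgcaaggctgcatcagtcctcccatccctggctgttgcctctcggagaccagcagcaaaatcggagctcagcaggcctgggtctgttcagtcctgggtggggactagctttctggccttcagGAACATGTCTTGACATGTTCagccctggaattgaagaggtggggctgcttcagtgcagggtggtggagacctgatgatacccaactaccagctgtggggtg
Ccng1: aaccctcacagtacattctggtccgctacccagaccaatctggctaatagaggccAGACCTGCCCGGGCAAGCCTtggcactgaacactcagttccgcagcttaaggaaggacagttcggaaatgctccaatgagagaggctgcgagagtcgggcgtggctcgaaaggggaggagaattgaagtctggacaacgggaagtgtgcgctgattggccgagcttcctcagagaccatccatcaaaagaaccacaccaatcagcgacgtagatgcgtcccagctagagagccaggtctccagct
Each match differs from the consensus at 1 letter. That of Cdkn1a lies 51 to 32 bases before its annotated start, and that of Ccng1 lies 195 to 176 bases before it. A second Cdkn1a window, the windows of Trp53, Mdm2, Phlda3, Eda2r and Aen, and both windows of Gdf15 held no match. Only these letters in these windows were searched, and sites farther away or within introns were not.

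The first question was how the 10 genes stood in untreated lines that differ in their level of Trp53. Since the lines were set side by side for their level of Trp53, its own differences are given as values with no test, and calls are counted over its 9 targets. In DMSO, 8 of the 9 were lower in EA2 than in EA1 and 6 were lower in EA3 than in EA1, while EA2 and EA3 differed from each other in 3. By the same test, 15.0% of all genes were lower in EA2 than in EA1, 9.76% were lower in EA3 than in EA1, and 25.6% differed in either direction between EA3 and EA2. The median log2 fold change of the 9 targets was -2.64 for EA2 against EA1 and -1.89 for EA3 against EA1, where the medians of all genes tested were -0.02 and 0.03. In the same fit, 3 of 4 epithelial markers were lower and 0 higher in EA2 than in EA1, with values of -3.42 for Krt8 and -3.10 for Cdh1, and 0 were lower and 0 higher in EA3 than in EA1. Cd68, a blood cell marker, was higher in EA2 (3.38) and in EA3 (3.33) than in EA1. Listed genes that passed the filter on low counts through 1 line alone, or through 1 treatment alone in the fit of alectinib, were left out of all list counts. Among those left out here were the epithelial markers Epcam and Cldn4, with fitted log2 fold changes of 6.59 and 8.83 for EA3 against EA1. The part of these markers in the values of the targets was not tested. All tests used the quasi-likelihood method of edgeR, with p-values adjusted over all genes after Benjamini and Hochberg and called at an adjusted p under 0.05. Scaling by library size alone moved all log2 fold changes of EA2 against EA1 by 0.19 and raised the share of higher calls among all genes called from 48.6% to 62.6%. It moved those of EA3 against EA2 by -0.155 and lowered that share from 57.1% to 45.1%. The 8, 6 and 3 calls of the targets kept their direction under this scaling.

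Trp53 itself (chr11:69580359-69591873, + strand, in the GENCODE annotation of mm10) stood at 224, 184, 198 and 92.5 CPM on days 1, 2, 3 and 5 in EA1 with DMSO. The same days gave 82.4, 78.1, 52.1 and 76.5 CPM in EA2 and 7.21, 6.16, 7.57 and 3.835 CPM in EA3. The order was EA1, EA2, EA3 with no overlap between lines, and the lowest EA1 library was that of day 5. Means were 174.5 ± 57.2 CPM in EA1, 72.3 ± 13.7 in EA2 and 6.19 ± 1.68 in EA3 (SD, n = 4 days), so that EA2 held 41.4% and EA3 3.55% of the EA1 level. The EA3 values rest on 23 to 79 counts per library. The fitted log2 fold change was -1.26 for EA2 against EA1 (standard error 0.28), -4.80 for EA3 against EA1 (0.32) and -3.53 for EA3 against EA2 (0.31).

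The feedback genes followed. Mdm2 (chr10:117688875-117710758, -) stood at 126, 118, 406 and 406 CPM in EA1 with DMSO, at 65.6, 69.65, 104.8 and 60.5 CPM in EA2 and at 51.1, 47.5, 75.8 and 109 CPM in EA3. Every EA1 library lay above every library of the other lines, whose ranges overlapped each other. Its log2 fold change was -1.81 for EA2 against EA1 (adjusted p = 0.00632) and -1.89 for EA3 against EA1 (adjusted p = 0.00638, edgeR), whereas that of EA3 against EA2 was -0.08 (95% confidence interval -0.98 to 0.82, adjusted p = 0.909). Ccng1 (chr11:40748552-40755311, -), which encodes cyclin G1, stood at 371, 199, 346.5 and 303 CPM in EA1, at 80.35, 90.5, 62.1 and 71.3 CPM in EA2 and at 58.3, 49.9, 37.6 and 37.2 CPM in EA3. It was the one target that kept the order of Trp53 with no overlap between any of the lines. Its log2 fold change was -1.995 for EA2 against EA1 (adjusted p = 2.26e-05), -2.73 for EA3 against EA1 (adjusted p = 3.43e-06) and -0.73 for EA3 against EA2 (adjusted p = 0.0292) by the same edgeR test. The third was lost without the EA2 library of day 1 or day 2, without the EA3 library of day 3 or day 5, and with the day 7 library (adjusted p from 0.0084, by DESeq2, to 0.0859, by edgeR, over its alternatives).

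Cdkn1a (chr17:29090976-29100727, +) departed from this pattern in EA3. It stood at 77.2, 107, 359 and 319.8 CPM in EA1 with DMSO, at 13.5, 14.9, 47.7 and 21.2 CPM in EA2, and at 15.4, 69.8, 108.5 and 349 CPM in EA3. EA2 lay below every EA1 library, but the EA3 range ran from the EA2 level on day 1 to the EA1 level on day 5. Its log2 fold change was -3.14 for EA2 against EA1 (standard error 0.81, adjusted p = 0.0102, edgeR). Without the filter on low counts this call was lost (adjusted p from 0.000336 to 0.0603 over its alternatives). For EA3 against EA1 it was -0.66 (95% confidence interval -2.265 to 0.95, adjusted p = 0.578), and for EA3 against EA2 it was 2.48 (standard error 0.79, adjusted p = 0.0333, edgeR). This last call was lost under 7 of 20 alternatives, which left out EA2 day 1, 2 or 5 or EA3 day 3 or 5, dropped the filter or added the day 7 library (edgeR adjusted p from 0.00576 to 0.161). The exons of Cdkn1a share 7.68% of their bases with a transcript on the opposite strand, and the counted strand is not given in the sources used here.

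The other stress and survival targets were highest in EA1. Zmat3 (chr3:32334792-32366014, -), which encodes an RNA-binding zinc finger protein, stood at 115.9, 89.05, 207 and 114 CPM in EA1, between 38.9 and 44.5 CPM in EA2 and between 23.0 and 46.7 CPM in EA3. Phlda3 (chr1:135766119-135769136, +), whose product restrains Akt, stood at 134, 146, 185 and 277 CPM in EA1, between 22.8 and 33.0 CPM in EA2 and between 40.2 and 62.0 CPM in EA3. Neither gene overlapped between EA1 and the other lines, and for Phlda3 every EA3 library also lay above every EA2 library. The log2 fold changes of Zmat3 were -1.64 for EA2 and -1.91 for EA3 against EA1, and those of Phlda3 were -2.79 and -1.87 (adjusted p = 0.000766, 0.000366, 3.64e-06 and 0.000149, edgeR). Between EA3 and EA2, Phlda3 differed by 0.93 on the log2 scale (standard error 0.25, adjusted p = 0.0156, edgeR), a call that was lost without the EA2 library of day 1 or day 2 (adjusted p from 0.00507 to 0.0557 over its alternatives).

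Trp53inp1 (chr4:11156431-11174379, +) encodes a stress protein of autophagy and cell death. It stood at 43.9, 53.5, 254 and 136 CPM in EA1, at 14.0, 14.6, 28.6 and 20.7 CPM in EA2 and at 4.56, 22.6, 49.4 and 56.2 CPM in EA3. EA2 lay below every EA1 library and EA3 overlapped EA1. Its log2 fold change was -2.64 for EA2 against EA1 (adjusted p = 0.0107, edgeR), lost without the filter on low counts (adjusted p from 0.000262, by DESeq2, to 0.0615, by edgeR, over its alternatives), and -1.87 for EA3 against EA1, which missed the threshold (edgeR adjusted p = 0.06, 95% confidence interval -3.31 to -0.44) and passed it under 5 of 20 alternatives, which were the day as a block (0.00244), DESeq2 and leaving out EA1 day 1 or 2 or EA3 day 5 (0.00244 to 0.219 over its alternatives).

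Eda2r (chrX:97333840-97377216, -), a receptor of the tumor necrosis factor family, was scarce in all lines. It stood at 8.26, 5.37, 14.4 and 12.35 CPM in EA1, at 0.18, 0.292, 1.10 and 0.839 CPM in EA2 and at 0.274, 1.57, 1.99 and 3.00 CPM in EA3. Every EA1 library lay above the others, although the libraries of EA2 and EA3 held only 2 to 18 counts. Against EA1 the log2 fold change was -4.00 for EA2 and -2.59 for EA3 (adjusted p = 0.000511 and 0.00857, edgeR). Aen (chr7:78895854-78911209, +), an exonuclease of cell death, stood at 79.4, 61.5, 154 and 63.7 CPM in EA1, between 24.5 and 46.0 CPM in EA2 and between 23.55 and 50.1 CPM in EA3. Its log2 fold changes of -1.28 and -1.33 against EA1 passed the threshold (adjusted p = 0.0116 and 0.012, edgeR), with no overlap between EA1 and the other lines.

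Gdf15 (chr8:70629393-70632456, -), a secreted cytokine of the TGF-beta family, varied more over days in DMSO than any other member in each line. It stood at 63.3, 230, 2342 and 667 CPM in EA1, at 15.2, 18.8, 326 and 96.6 CPM in EA2 and at 2.01, 22.6, 275 and 107 CPM in EA3. Day 3 was the highest day in each line, and the ranges of the lines overlapped, with the highest value of EA1 37 times its lowest. The log2 fold changes of -2.85 and -3.02 against EA1 missed the threshold (95% confidence intervals -5.74 to 0.04 and -5.93 to -0.10, adjusted p = 0.129 and 0.131, edgeR). With the day as a block both passed (edgeR adjusted p = 0.000133 and 5.85e-05), and over the other alternatives neither did (up to 0.436 and 0.423).

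**Figure D2:**
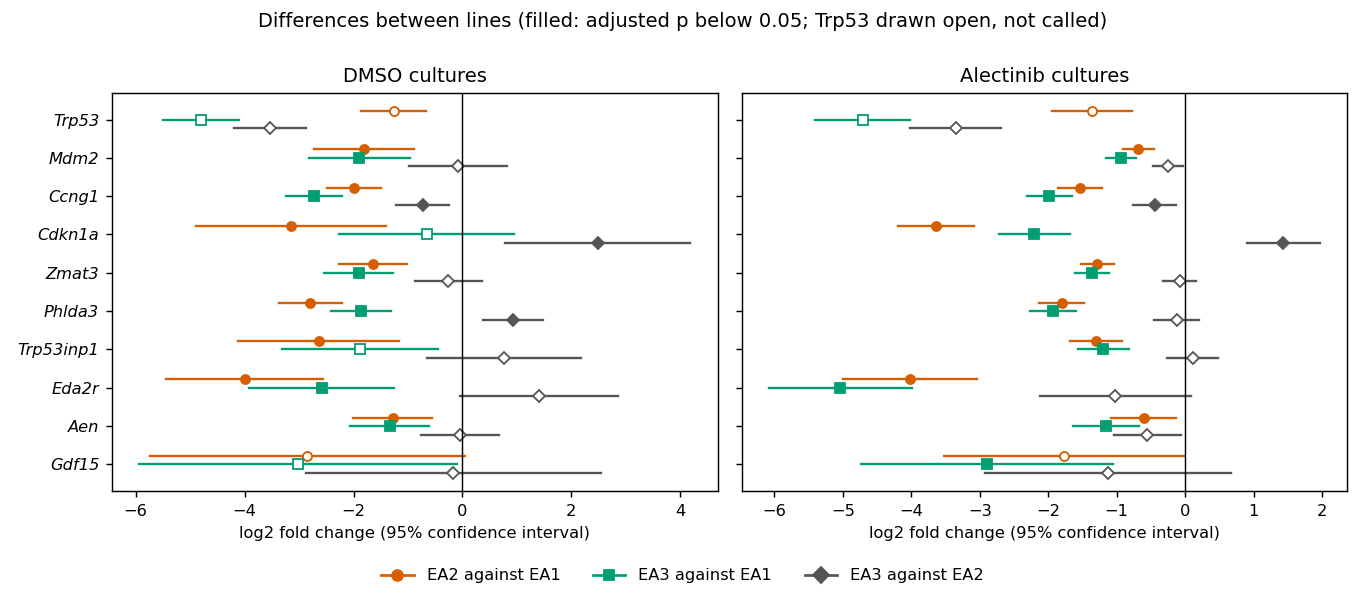
Log2 fold changes between lines (x axis) for the 10 genes, with 95% confidence intervals, in DMSO cultures (left) and alectinib cultures (right); filled symbols have an adjusted p under 0.05, and Trp53, for whose level the lines were compared, is drawn open. In DMSO, every estimate against EA1 lies below 0, while the estimates of EA3 against EA2 lie on both sides, from -3.53 for Trp53 to 2.48 for Cdkn1a.

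Per kilobase of annotated exon, the members differed widely in level within EA1. Gdf15 had a mean of 446 CPM per kilobase in DMSO, or 173 without day 3, followed by Phlda3 at 119 and Ccng1 at 86.8, while Trp53 stood at 43.15 and Eda2r, the lowest, at 1.71. In EA3 the mean of Gdf15 was 54.8 CPM per kilobase, or 23.6 without day 3, that of Cdkn1a 38.2, or 18.2 without day 5, that of Phlda3 32.5, that of Mdm2 13.95 and that of Ccng1 13.0, and Trp53 stood at 1.53.

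The lines were compared in the alectinib cultures too. There, 8 of the 9 targets were lower in EA2 than in EA1, against 22.7% of all genes, and 9 were lower in EA3 than in EA1, against 17.6% of all genes. Eda2r passed the filter on low counts only through EA1, where it is high, and without it the counts were 7 and 8 of 8. EA3 and EA2 differed in 2 of the 9, where 44.8% of all genes differed in either direction. Phlda3, which differed between EA3 and EA2 in DMSO, overlapped between them with alectinib, with a log2 fold change of -0.13 (95% confidence interval -0.45 to 0.20, edgeR adjusted p = 0.532). With alectinib, Cdkn1a lay between 72.2 and 108 CPM in EA1, between 6.46 and 8.42 CPM in EA2, and between 13.1 and 31.3 CPM in EA3, so that the lines did not overlap. Its highest day exceeded its lowest by 1.5-fold in EA1 and 2.39-fold in EA3, against 4.65-fold and 22.6-fold in DMSO. Its log2 fold change was -3.64 for EA2 against EA1, -2.20 for EA3 against EA1 and 1.43 for EA3 against EA2 (adjusted p = 4.24e-07, 2.26e-05 and 0.000503, edgeR).

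Trp53 with alectinib lay in EA1 between 92.0 and 154, in EA2 between 22.3 and 70.15 and in EA3 between 4.09 and 4.81 CPM, again with no overlap. For Mdm2 the ranges were 97.4 to 107 CPM (EA1), 58.1 to 69.4 CPM (EA2) and 47.0 to 58.9 CPM (EA3), and its log2 fold change against EA1 was -0.68 for EA2 and -0.94 for EA3 (adjusted p = 0.000154 and 2.32e-05, edgeR) beside -1.81 and -1.89 in DMSO. Gdf15 passed in EA3 against EA1 with -2.89 (adjusted p = 0.0175, edgeR; 0.000292 to 0.0783 over its alternatives, lost without the filter) and missed the threshold in EA2 against EA1 (-1.77, 95% confidence interval -3.52 to -0.02, edgeR adjusted p = 0.0888), which it passed with the day as a block (0.00168; up to 0.235 over its alternatives). Of these calls, Aen in EA2 against EA1 was the weakest, at -0.61 (adjusted p = 0.0374, edgeR). It was lost under 6 of 20 alternatives, which included the day as a block (adjusted p = 0.0721) and leaving out EA1 day 2, 3 or 5 or EA2 day 1 or 3 (0.00578 to 0.097 over its alternatives). Ccng1 in EA3 against EA2, -0.44 (adjusted p = 0.0252, edgeR), was lost under 7 of 20, among them EA2 without day 3 or 5, EA3 without day 1 or 3, and EA3 with the day 7 library (0.0131 to 0.709 over its alternatives).

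Other genes of the p53 pathway were grouped by role. Among 18 regulators and partners of p53 tested in DMSO, 3 were higher and 4 lower in EA2 than in EA1, and 3 were higher and 2 lower in EA3 than in EA1. Of all genes, 14.2% were higher and 15.0% lower in EA2 than in EA1, and 12.4% were higher and 9.76% lower in EA3 than in EA1, against which this and the other lists are to be read. The largest of these differences was that of Cdkn2a, which encodes p19Arf, an inhibitor of Mdm2, and p16Ink4a, an inhibitor of cyclin-dependent kinases. It had 0 counts in all 4 DMSO libraries of EA1, 516, 666.5, 747 and 662 CPM on the 4 days in EA2, and 237, 417, 282 and 285 CPM in EA3. Against a floor of 3 counts over the EA1 group, EA2 was at least 7494-fold and EA3 at least 3532-fold higher. With alectinib, EA1 held 1 count in 1 library. Counts per gene do not separate the p19Arf and p16Ink4a transcripts. Mdm4, a partner of Mdm2, was lower in EA2 (43.7 ± 7.16 CPM, SD, n = 4) than in EA1 (117 ± 44.7 CPM), with a log2 fold change of -1.41 (adjusted p = 0.00207, edgeR).

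Of 10 cell death targets tested in DMSO, 5 were lower and 0 higher in EA2 than in EA1, with a median log2 fold change of -0.66 over the 10. Perp, a membrane protein of cell adhesion and death, had a log2 fold change of -2.61 (15.1 ± 1.39 against 92.7 ± 22.1 CPM), and Bax, a pore-forming protein of mitochondria, one of -1.17. In EA3 against EA1, 3 were lower and 1 higher, and Bax was again lower, with a log2 fold change of -0.97 (36.0 ± 12.2 against 70.8 ± 8.22 CPM, adjusted p = 0.0127, edgeR). Of 14 metabolic and other targets tested, 6 were lower and 0 higher in EA2, and 5 were lower and 0 higher in EA3. Def6 had log2 fold changes of -2.835 in EA2 and -2.785 in EA3, from 24.6 ± 6.30 CPM in EA1 to 3.39 ± 0.848 and 3.53 ± 1.16 CPM. Arrest and DNA repair targets split, with 2 lower and 1 higher of 14 in EA2 and 1 lower and 1 higher in EA3. Ercc5, a nuclease of excision repair, was lower in both, with log2 fold changes of -1.815 and -1.40, while Plk2 was higher in EA2 (2.00) and Sfn higher in EA3 (1.47). Of 12 cell cycle genes that p21 is known to lower, 1 passed the threshold in EA2 against EA1, E2f1 with a log2 fold change of 0.84.

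Across the 24 libraries, the log2 CPM of each gene was set beside that of Trp53. Among 9372 other genes with an average log2 CPM of at least 3, those with Pearson correlations with Trp53 of rank 1, 2, 3 and 5 were Adcy7 (r = 0.928), Slfn9 (0.927), Cnksr2 (0.922) and Dglucy (0.914). Their DMSO means fell in the same order of lines as Trp53, for example 58.1, 28.4 and 2.27 CPM for Adcy7 in EA1, EA2 and EA3. Among the targets, Ccng1 ranked 151 (r = 0.765), Zmat3 197 (0.741), Aen 299 (0.703), Mdm2 759 (0.571), Phlda3 1144 (0.496) and Gdf15 1213 (0.484), whereas Trp53inp1 (0.269) and Cdkn1a (0.22) ranked 2711 and 3128. These correlations describe libraries that fall into the lines by Trp53 level. Over the 8 libraries within a line, those of these 4 genes ranged from -0.224 to 0.841. In EA1, EA2 and EA3 they were 0.601, 0.350 and 0.530 for Aen, 0.393, 0.291 and 0.607 for Zmat3, 0.013, 0.089 and -0.257 for Mdm2, -0.051, -0.542 and -0.328 for Ccng1, -0.119, 0.272 and -0.035 for Cdkn1a, 0.159, -0.119 and 0.112 for Gdf15, -0.625, -0.792 and -0.262 for Phlda3, and -0.512, -0.685 and -0.638 for Trp53inp1.

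Untreated cultures also changed over days. In DMSO, the level of 2 of the 10 genes was higher with each doubling of days in EA3, against 3.17% of all genes, and of 0 of 10 in EA1 and EA2, where 0.807% and 0% of all genes were. In EA3, Cdkn1a rose by 1.89 on the log2 scale per doubling of days (standard error 0.32, adjusted p = 0.00997) and Trp53inp1 by 1.62 (0.40, adjusted p = 0.0366) in edgeR's quasi-likelihood test. Neither call held without day 1, 2 or 5 (edgeR adjusted p up to 1), and that of Trp53inp1 did not hold with day in place of its logarithm (0.155). In EA1, the slopes of Cdkn1a (1.05), Mdm2 (0.86) and Trp53inp1 (1.01) had intervals above 0 but missed the threshold (adjusted p = 0.119, 0.101 and 0.19, edgeR). That of Trp53 was -0.46 (95% confidence interval -0.905 to -0.009, edgeR adjusted p = 0.286). Without day 3, 4 of the 10 genes passed as higher with days in EA1 and 1, Trp53, as lower, where 3.29% and 2.57% of all genes did. Beside the count of 0 in EA1, 4 genes were higher and 1 was lower at an unadjusted p under 0.05 (8.86% and 8.24% of all genes), and DESeq2 called 3 as higher (2.97% of all genes). In EA2 these numbers were 0, with 1.15% of all genes higher at an unadjusted p under 0.05 and 0.00776% by DESeq2. Over the same days in EA3, the summed level of the 12 cell cycle genes was 2144, 1202, 682 and 536 CPM, and 8 of 12 fell with days there, as did 8 of 12 in EA1, where 2.93% and 1.02% of all genes fell. In EA1 their sum was 2779, 1489, 583 and 552 CPM. Cd68 rose with days in EA3 (1.795 per doubling on the log2 scale, edgeR adjusted p = 0.0162). The part of these genes in the change of the targets was not tested.

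**Figure D3:**
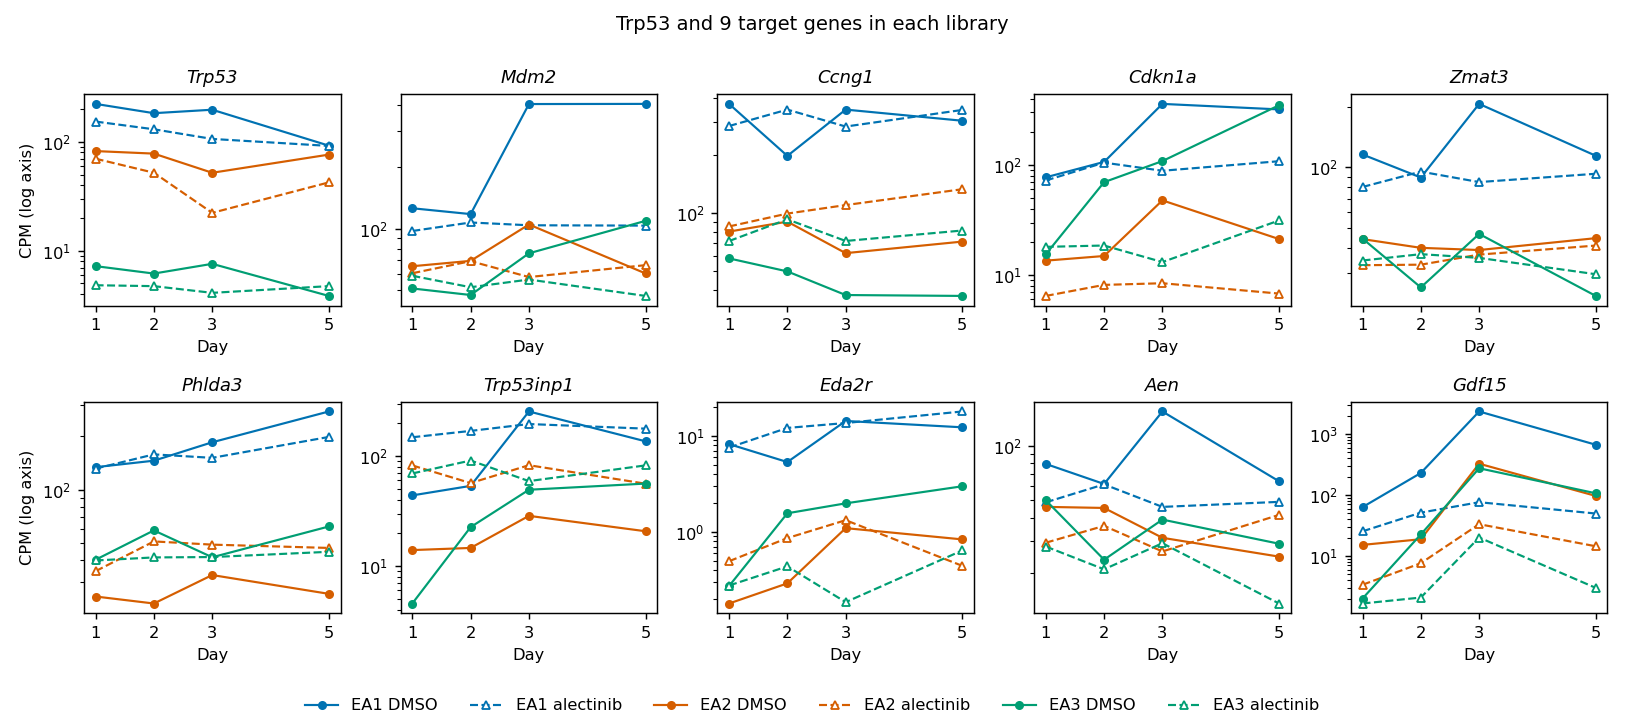
CPM (log axis) of the 10 genes against day, by line (color) and treatment (filled circles and solid lines DMSO, open triangles and dashed lines alectinib); each point is 1 library. Mdm2 and Cdkn1a in EA1 part from their alectinib values on days 3 and 5, Gdf15 peaks on day 3 in DMSO in each line, and Trp53inp1 in EA3 starts at 4.56 CPM in DMSO on day 1 against 69.45 CPM with alectinib.

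The second question was what alectinib did to the 10 genes. Gdf15 fell in all 3 lines. Beyond it, Mdm2 was called lower in EA1, and Trp53 lower and Trp53inp1 and Phlda3 higher in EA2. In EA3, Cdkn1a and Eda2r were called lower and Ccng1 and Trp53inp1 higher. A call in 1 line only is not a difference between lines. When that difference was tested, Phlda3 alone passed (edgeR adjusted p = 0.0197), and the other genes called ranged from 0.0618 (Eda2r) to 0.71 (Trp53). In EA1, 2 of 10 were lower and 0 higher, where 15.8% and 18.0% of all genes were. In EA2, 2 were lower and 2 higher, where 11.3% and 13.0% of all genes were. In EA3, 3 were lower and 2 higher, where 15.8% and 16.5% of all genes were. For the 10 genes the median log2 fold change was -0.495 (EA1), -0.165 (EA2) and -0.37 (EA3), and that of all genes was 0.03, -0.00 and 0.04. Scaling by library size alone moved all values by 0.13 in EA1 and 0.15 in EA3 and raised the share of higher calls among all genes called from 53.2% to 64.6% and from 51.0% to 64.8%. The member calls kept their direction. The 3 lines share no library, and each was compared with its own DMSO cultures.

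Gdf15 stood at 25.4, 51.4, 76.2 and 49.7 CPM with alectinib in EA1, at 3.38, 7.62, 33.25 and 14.45 CPM in EA2 and at 1.665, 2.085, 20.1 and 3.00 CPM in EA3. It was below the DMSO culture of the same day on 4 of 4 days in each line, by 2.49- to 30.7-fold in EA1. On day 1 in EA3 the values were close, at 2.01 CPM in DMSO and 1.665 CPM with alectinib, and by day 5 they were 35.5-fold apart. The log2 fold change was -3.05 in EA1 (standard error 0.66, adjusted p = 0.00384), -2.46 for EA2 (0.65, adjusted p = 0.0151) and, for EA3, -3.51 (0.74, adjusted p = 0.00355, edgeR). The call in EA2 was lost without day 3 or day 5 and without the day as a block (0.0951; adjusted p from 9.71e-27, without the filter on low counts, to 0.0951 over its alternatives).

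Members of the ATF4 stress response, a pathway that also induces Gdf15, were measured alongside. Of 8 such genes, 0 rose with alectinib, while 7 fell in EA1, 2 in EA2 and 6 in EA3, where 15.8%, 11.3% and 15.8% of all genes fell. Their summed level in DMSO was 839.8, 2345, 3069 and 1676 CPM on days 1, 2, 3 and 5 in EA1, 689, 867, 1958 and 1192 CPM in EA2 and 1062, 2235, 3115 and 2045 CPM in EA3, so that day 3 was highest in each line, as for Gdf15. With alectinib the sums lay between 397 and 605 CPM in EA1, between 408 and 1188 CPM in EA2 and between 514 and 771 CPM in EA3. Slc7a11, a cystine transporter, changed by -2.66 (EA1), -1.22 (EA2) and -3.68 (EA3) on the log2 scale. The part of this response in the level of Gdf15 was not tested.

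In EA1 and EA2 the treated culture held less Trp53 on 4 of 4 days, and in EA3 on 3 of 4. In EA2 it stood at 70.15, 52.1, 22.3 and 42.5 CPM with alectinib against 82.4, 78.1, 52.1 and 76.5 CPM in DMSO, and fell by 0.72 on the log2 scale (standard error 0.19, adjusted p = 0.015, edgeR). This call was lost without day 3 or day 5 and, without the day as a block, at 0.128 (adjusted p from 0.00154, by DESeq2, to 0.128, by edgeR, over its alternatives). In EA1 the values were 154, 131, 107 and 92.0 CPM with alectinib, with a log2 fold change of -0.48 that missed the threshold (95% confidence interval -0.89 to -0.08, adjusted p = 0.0639, edgeR). In EA3 it was -0.42 (-0.90 to 0.065).

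Mdm2 in EA1 stood at 97.4, 107, 104 and 103.5 CPM with alectinib against 126, 118, 406 and 406 CPM in DMSO. The treated level was flat, and the daily log2 ratio was -0.37, -0.14, -1.96 and -1.97, and the gap was widest on days 3 and 5, when the DMSO level was highest. Its fitted log2 fold change was -1.12 (standard error 0.33, adjusted p = 0.0187, edgeR), and without day 3 or day 5 it missed the threshold (adjusted p from 8.91e-07, without the filter on low counts, to 0.128 over its alternatives; log2 fold change -1.41 to -0.80 as days were left out). In EA2 and EA3 the log2 fold changes of Mdm2 were -0.21 and -0.32, with intervals of -0.89 to 0.47 and -1.01 to 0.36.

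Cdkn1a showed a similar course in EA3. Its values with alectinib were 18.0, 18.5, 13.1 and 31.3 CPM against 15.4, 69.8, 108.5 and 349 CPM in DMSO, and the daily log2 ratio was 0.22, -1.90, -3.03 and -3.47. On the log2 scale the fold change was -2.13 (standard error 0.56, adjusted p = 0.0117, edgeR), lost without day 3 or day 5 and with the line fitted alone (adjusted p from 1.43e-18, without the filter on low counts, to 0.0682 over its alternatives). In EA2 Cdkn1a was lower on 4 of 4 days, at 6.46 to 8.42 CPM against 13.5 to 47.7 CPM with no overlap, but its log2 fold change of -1.54 missed the threshold (95% confidence interval -2.73 to -0.36, adjusted p = 0.0575, edgeR). It passed under 7 of 20 alternatives (2.67e-10 to 0.24). In EA1 its log2 ratio was -0.10, -0.02, -2.015 and -1.56 on the 4 days, and the fitted value of -0.93 missed the threshold (-2.03 to 0.18, adjusted p = 0.178, edgeR).

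The cell cycle genes that p21 is known to lower were measured beside it. Of the 12, 3 fell and 0 rose in EA3, 4 fell and 0 rose in EA2, and 1 fell and 0 rose in EA1, where 15.8%, 11.3% and 15.8% of all genes fell. Mybl2, a transcription factor of the cell cycle, had log2 fold changes of -1.15 in EA1 and -1.59 in EA2, and Cdk1 one of -1.24 in EA3. The part of these changes in the level of Cdkn1a was not tested.

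Trp53inp1 moved the other way. With alectinib it stood at 82.2, 56.8, 82.6 and 56.0 CPM in EA2 against 14.0, 14.6, 28.6 and 20.7 CPM in DMSO, and at 69.45, 91.1, 59.2 and 82.3 CPM in EA3 against 4.56, 22.6, 49.4 and 56.2 CPM. Every treated library lay above every DMSO library of its line, and the gap was widest on day 1, at 5.89-fold in EA2 and 15.2-fold in EA3. In EA2 the estimate was 1.86 on the log2 scale (standard error 0.50, adjusted p = 0.0168), and that for EA3 was 1.58 (0.53, adjusted p = 0.0371, edgeR). The call in EA2 was lost without day 1 or day 3 (adjusted p up to 0.0756). The call in EA3 was lost without day 1 or day 2, without the day as a block (0.0864), with the line fitted alone and with the libraries labelled day 7 added (0.159, the highest over its alternatives; the lowest were 1.12e-16 in EA2 and 6.84e-11 in EA3, without the filter on low counts). In EA1 Trp53inp1 was higher on days 1 and 2, with log2 ratios of 1.75 and 1.66, lower on day 3 (-0.38) and higher on day 5 (0.38), and its fitted value of 0.85 missed the threshold (95% confidence interval -0.22 to 1.93).

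Ccng1 rose in EA3, with 71.8, 93.05, 71.8 and 81.4 CPM with alectinib against 58.3, 49.9, 37.6 and 37.2 CPM in DMSO and no overlap between treatments. Its log2 fold change was 0.81 (standard error 0.21, adjusted p = 0.00988, edgeR). It passed the threshold under each of 20 alternatives, none of which set a least size of fold change. In EA2 it was higher on 4 of 4 days, with 0.49 (95% confidence interval 0.04 to 0.94, adjusted p = 0.107, edgeR), and in EA1 the value was 0.08 (-0.37 to 0.52).

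Eda2r fell in EA3, from 0.274, 1.57, 1.99 and 3.00 CPM in DMSO to 0.277, 0.439, 0.186 and 0.6435 CPM, which rest on 3 to 18 and 2 to 6 counts per library. The treatments overlapped, with day 1 low in both. Its fitted log2 fold change was -1.97 (standard error 0.51, adjusted p = 0.00992, edgeR), lost without day 3 or day 5 (adjusted p from 0.00094 to 0.0606 over the 18 alternatives that tested it). Eda2r could not be tested with EA3 fitted alone or with at least 10 counts required in every library. In the fit of all lines, 8 libraries of EA1, 2 of EA2 and 3 of EA3 reached the level that the filter asks of at least 4. In EA1, where its level was highest, the value was 0.38 (95% confidence interval -0.42 to 1.18). Zmat3 and Aen passed in no line. Zmat3 was at -0.51, -0.23 and 0.03 in EA1, EA2 and EA3, with intervals from -0.955 to -0.06, -0.68 to 0.225 and -0.43 to 0.49, and Aen at -0.70, -0.12 and -0.63, with intervals from -1.285 to -0.12, -0.70 to 0.46 and -1.22 to -0.05.

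Phlda3 was the 1 gene of the 10 whose response to alectinib was called as different between lines, a count near the 7.05% of all genes so called. In EA2 it stood at 34.7, 51.1, 49.0 and 46.9 CPM with alectinib against 24.95, 22.8, 33.0 and 25.8 CPM in DMSO, higher on 4 of 4 days with no overlap. In EA1 the daily log2 ratio was -0.03, 0.12, -0.29 and -0.48, and in EA3 it was -0.01, -0.50, 0.004 and -0.47. The log2 fold change was 0.76 in EA2 (standard error 0.16, adjusted p = 0.00297, edgeR), -0.17 in EA1 and -0.25 in EA3. The test of the difference with 2 degrees of freedom gave an adjusted p of 0.0197 (edgeR's quasi-likelihood test), and the log2 fold change in EA2 exceeded that in EA1 by 0.93 (95% confidence interval 0.47 to 1.40), while the difference of EA3 minus EA2 was -1.01 (-1.48 to -0.54). The call between lines was lost without day 2 or day 5 of EA2 and with the libraries labelled EA3 day 7 added (adjusted p from 0.00062, by DESeq2, to 0.0683, by edgeR, over its alternatives). These pairwise differences had adjusted p-values of 0.0228 and 0.0271 and were lost under 5 and 7 of 19 alternatives (up to 0.0712 and 0.144), among them the fit without the day as a block (0.0523 and 0.0601, edgeR) and, for the second, the fit with the libraries labelled EA3 day 7 (0.144).

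Eda2r came closest among the others, with an adjusted p of 0.0618 between lines by the same edgeR test (0.00482 to 0.159 over 18 alternatives). The difference of its log2 fold changes was -2.34 for EA3 minus EA1 (95% confidence interval -3.70 to -0.99) and -2.36 for EA3 minus EA2 (-3.93 to -0.80). For Mdm2, whose fold change was called in EA1 alone, the difference between EA2 and EA1 was 0.91 (-0.07 to 1.88) and that between EA3 and EA1 was 0.79 (-0.19 to 1.77), and the test between lines gave an adjusted p of 0.324 (edgeR). For Cdkn1a it gave 0.505, for Trp53inp1 0.556 and for Ccng1 0.242, so that a difference between lines was not shown for these genes in the main fit. Without the filter on low counts, 1 of 19 alternatives, the same edgeR test passed for Mdm2 (adjusted p = 0.0289), Cdkn1a (0.00899) and Trp53inp1 (0.0216).

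**Figure D4:**
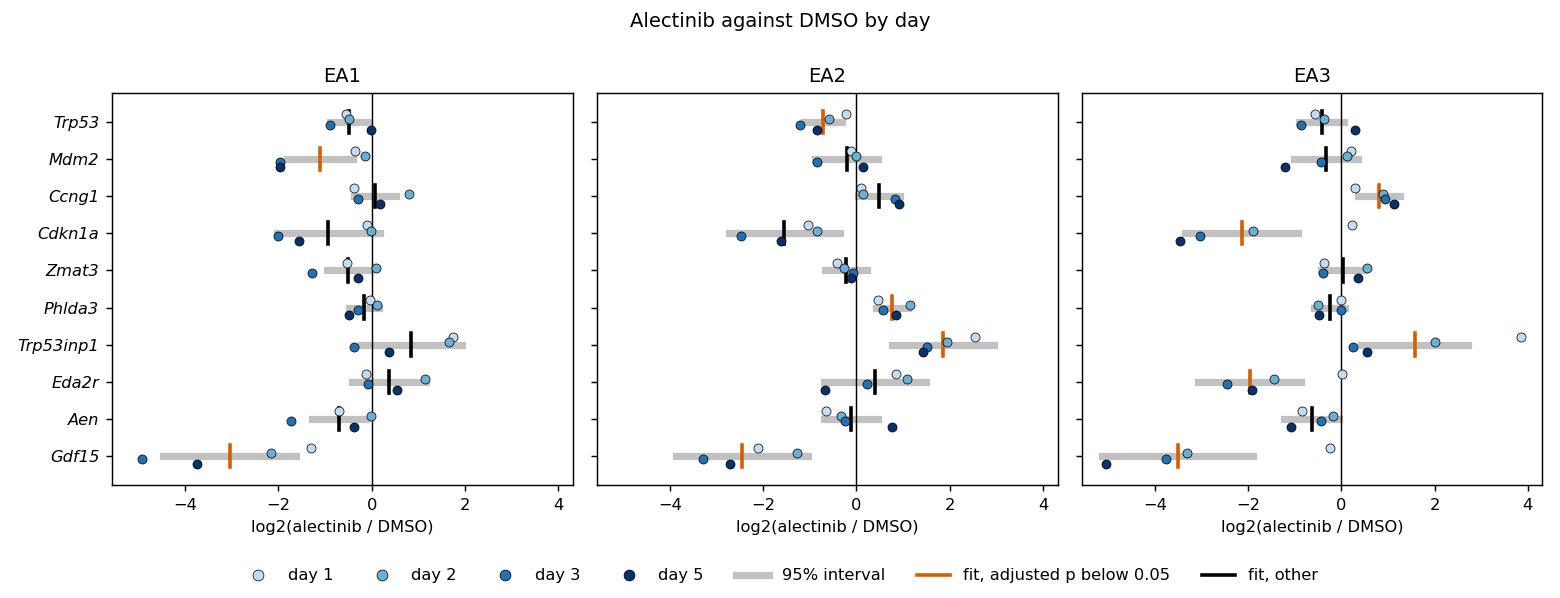
Log2 ratio of alectinib to DMSO (x axis, same scale in each panel) for the 10 genes in EA1, EA2 and EA3; points are days, thick grey lines the 95% confidence intervals of the fit and upright bars the fitted log2 fold change, orange where the adjusted p was under 0.05. Gdf15 lies left of 0 on every day in each line, Trp53inp1 lies right of 0 on every day in EA2 and EA3, and Phlda3 lies right of 0 on every day in EA2 alone.

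The response to alectinib was also followed over days. The change of this response with each doubling of days, its slope, passed the threshold for 0 of the 10 genes in each line, where 0.0210%, 0% and 0.0631% of all genes passed in EA1, EA2 and EA3. In EA1, 4 of the 10 had an unadjusted p under 0.05 and DESeq2 called 1, where 11.3% and 1.72% of all genes did. In EA2 the numbers were 0 and 0, beside 5.93% and 0.421% of all genes. In EA3 they were 4 and 3, beside 13.0% and 2.45% of all genes. In EA3 the slope of Cdkn1a was -1.63 (95% confidence interval -2.37 to -0.90, adjusted p = 0.0896), that of Trp53inp1 -1.56 (-2.32 to -0.81, adjusted p = 0.11) and that of Gdf15 -1.96 (-3.24 to -0.68, adjusted p = 0.197, edgeR). In EA1 those of Gdf15, Mdm2 and Cdkn1a were -1.30, -0.82 and -0.80, with intervals below 0. Without day 3, 2 of the 10 passed in EA3, where 0.544% of all genes did.

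Other targets of p53 were counted beside all genes, of which 18.0% rose and 15.8% fell in EA1, 13.0% rose and 11.3% fell in EA2, and 16.5% rose and 15.8% fell in EA3. Of 10 cell death targets, 1 rose and 0 fell in EA1, 1 rose and 1 fell in EA2, and 1 rose and 2 fell in EA3. Fas, a death receptor, passed the filter on low counts only through the alectinib libraries and is given by its level, 1.25 ± 0.709 CPM in DMSO and 18.0 ± 9.07 CPM with alectinib in EA1, and by 1 to 2 counts per DMSO library and 16 to 52 per alectinib library in EA2. Perp rose in EA2, from 15.1 ± 1.39 to 101 ± 46.2 CPM (log2 fold change 2.63, adjusted p = 1.01e-05, edgeR). Of 14 arrest and DNA repair targets, 2 rose and 2 fell in EA1, 1 rose and 2 fell in EA2, and 3 rose and 2 fell in EA3. Plk3, a kinase of the stress response, fell in each line, with log2 fold changes of -2.49, -3.09 and -2.60, and so did Sesn2, a sestrin of the stress response, with -0.935, -0.96 and -1.46. Of 15 metabolic and other targets, 6 rose and 5 fell in EA1, 4 rose and 3 fell in EA2, and 5 rose and 6 fell in EA3, among them Dram1, a lysosomal protein of autophagy, which rose in each line (2.78, 1.47 and 2.37).

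Among 18 regulators and partners of p53, 1 rose and 5 fell in EA1, 1 rose and 1 fell in EA2, and 0 rose and 3 fell in EA3, beside the same shares of all genes. Rpl5 and Rpl11, ribosomal proteins that can bind Mdm2, fell in EA1 (log2 fold changes -1.29 and -0.95) and in EA3 (-1.30 and -1.10). Rpl5 stood at 1922 ± 670.5 CPM in DMSO and 757 ± 105 CPM with alectinib in EA1, and at 2479 ± 849.8 and 959 ± 65.15 CPM in EA3. Cdkn2a was not among the genes called, with 648 ± 96.2 CPM in DMSO and 615 ± 80.3 CPM with alectinib in EA2.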

How the data were processed

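RNA was sequenced from murine EML4-ALK lines with a stranded mRNA kit. Per the study's methods and the submitters' processing notes, FastQC and adapter trimming by bbduk came before alignment by STAR (genome mm10), whose own counter gave the raw counts per gene that the authors deposited, unpooled. The annotation release and the strand counted are not given in the sources used here. Of 55415 rows, 24 whose symbols had turned into dates (0.129% to 0.201% of counts) were left out.

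Counts were analysed with edgeR 4.0.16 in R 4.3.3 (TMM scaling, filterByExpr, robust quasi-likelihood test, Benjamini-Hochberg adjustment over all genes tested, threshold 0.05). Lines were compared in 1 fit of 12 DMSO libraries and 1 of 12 alectinib libraries. Alectinib was compared with DMSO in 1 fit of 24 libraries, with a block for each line and day. The day is a label shared by both libraries of a block, and deviations from the group means of a line's DMSO and alectinib libraries of a day correlated between -0.300 and 0.549. Slopes used log2(day). Daily fold values are ratios of CPM, and daily log2 ratios are differences of log2 CPM with a prior count of 2 added. Intervals cover the spread between days at the 95% level.

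All 10 genes were named, and from each other list at most 3 genes per comparison, those called with the largest log2 fold change. Of the 5 genes most correlated with Trp53, 1 is not reported here, nor is a detail of the lines' origin. The genes and lists were chosen with earlier results of these data known. Counts were simulated for the 14264 genes of the alectinib fit. Their spread was that of this fit, with its block for each line and day, and no differences between days were simulated. Changed genes were drawn only from those above a set average level. Recovery in the real comparisons of lines, whose spread includes that between days, was therefore not measured. In the simulated DMSO comparison of EA2 with EA1, which tested 13255 of them after its own filter, 66 of 100 genes changed by 1 on the log2 scale and 95 of 100 changed by 2 were recovered, and 8 of 14064 unchanged genes were called. For the alectinib effect between lines, 19 and 83 of 100 were recovered. Alternatives were DESeq2 1.42.0, other scalings and filters, the block, the fitted samples and left-out libraries. Promoter windows came from RefSeq (GRCm38.p6).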

Additional observations from a re-analysis of the deposited data

Results flagged for a closer look

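Of 60 groups of 4 libraries tested (10 genes in 3 lines and 2 treatments), 2 held a library whose distance to its nearest neighbour, as a share of the group's range, exceeded Dixon's critical value at the 95% level. By chance this befalls about 1 in 20 groups. Trp53 in EA3 with alectinib was lowest on day 3, at 4.09 CPM, where the other 3 days lay between 4.72 and 4.81 CPM. Gdf15 in EA3 with alectinib was highest on day 3, at 20.1 CPM, where the other 3 days lay between 1.665 and 3.00 CPM.

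The response of Phlda3 to alectinib differed between lines in the test of the difference itself (edgeR adjusted p = 0.0197). The log2 fold change was 0.76 in EA2, where the gene was higher on 4 of 4 days, beside -0.17 for EA1 and -0.25 for EA3. Of the 10 genes 1 was so called, where 7.05% of all genes were. The call was lost without day 2 or day 5 of EA2 and with the libraries labelled EA3 day 7 added.

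The libraries labelled EA3 day 7, which the main comparisons left out, held Trp53 at 45.2 CPM (DMSO) and 32.2 CPM (alectinib), above every EA3 library of days 1 to 5.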

How the results depend on the processing

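The counts of this paragraph include the differences of Trp53 between lines, which are descriptions, since the lines were compared for its level. The alternative of a log2 fold change of at least 1 was applied to whole comparisons only and is not in these counts. Of 119 values with a fit, 57 passed the threshold. Over their 1112 values under alternatives, 1041 kept direction and call, 71 lost the call and 0 changed direction, and 36 of the 57 lost it nowhere. Of 1009 values of the others, 62 passed and 29 changed sign. The cause of these changes was not tested.

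In DMSO EA3 against EA2, calls of targets numbered 1 in place of 3 with a log2 fold change of at least 1 or the day 7 library (2 in place of 4 with Trp53, whose difference is a description). With alectinib they numbered 1 in place of 2 under the same settings, without the filter and with only both lines fitted. For alectinib against DMSO in EA1 there were 4 with DESeq2 and 5 without the filter (2 in the main analysis), in EA2 2 in place of 4 with a log2 fold change of at least 1 or without the replicate block, and in EA3 2 in place of 5 with each line fitted alone. Between lines there were 2 with DESeq2, 6 without the filter and 0 with the day 7 libraries, in place of 1. The alectinib slope gave 1 with DESeq2 in EA1, and 3 with DESeq2 and 1 with at least 10 counts in every library in EA3, in place of 0. The DMSO slope gave 3 with DESeq2 and 4 without the filter in EA1, 1 without the filter in EA2, both in place of 0, and 4 with DESeq2, 4 without the filter and 1 with day in place of log2(day) in EA3, in place of 2. With library size alone, the share of higher calls among all genes with a DMSO slope was 32.2% in place of 44.1% in EA1 and 40.7% in place of 52.0% in EA3.

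Signs turned, none of them called, with the day 7 libraries for Mdm2 (0.17) and Gdf15 (0.62) in DMSO EA3 against EA2, Zmat3 with alectinib in EA3 (-0.13) and the Phlda3 difference of EA3 minus EA1 (0.092), without the replicate block for Zmat3 in EA3 (-0.032), and with day in place of log2(day) for Mdm2 in EA2, in the alectinib slope (0.034) and the DMSO slope (-0.011).

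With libraries or days left out, calls of targets ranged from 0 to 4 in DMSO EA3 against EA2 (1 to 5 with Trp53) and 1 to 3 with alectinib, and member calls from 1 to 4 for alectinib against DMSO in EA1, 1 to 5 in EA2, 3 to 5 in EA3, 0 to 2 between lines, 0 to 2 for the alectinib slope in EA3, 0 to 5 for the DMSO slope in EA1 and 0 to 3 in EA3. Uncalled values that changed sign ranged from -0.27 to 0.10 (Aen), -1.41 to 1.18 (Gdf15) and -0.37 to 0.105 (Mdm2) in DMSO EA3 against EA2, -0.41 to 0.064 (Aen, alectinib in EA2), -0.12 to 0.23 (Ccng1, EA1), -0.145 to 0.206 (Zmat3, EA3), -0.17 to 0.0081 (Phlda3, EA3 minus EA1), -0.16 to 0.40 (Mdm2, DMSO slope in EA2) and -0.40 to 0.14 (Mdm2, alectinib slope in EA2).

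Eda2r rested on 2 to 18 counts per library in EA2 and EA3, and Trp53 in EA3 on 23 to 79, which limits their ratios.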

Other observations

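In the libraries labelled EA3 day 7, which had 1 library per treatment and no test, Gdf15 stood at 484 CPM with DMSO and 20.5 CPM with alectinib, Cdkn1a at 51.8 and 7.23 CPM, Mdm2 at 146 and 79.3 CPM and Ccng1 at 67.6 and 168 CPM. Trp53inp1 stood at 91.9 CPM with DMSO and 50.5 CPM with alectinib, lower with alectinib, where it was higher on each of the 4 days to day 5 in EA3. Phlda3 stood at 37.35 and 52.5 CPM, Zmat3 at 46.35 and 29.4 CPM, Aen at 41.85 and 29.8 CPM, and Eda2r at 0.8745 and 0.349 CPM, from 7 and 4 counts.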
